A study of Mus musculus with 3 samples.

Results

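The genes of vascular endothelial growth factor (VEGF) and angiopoietin signalling described here were counted by single-cell RNA sequencing of the embryonic mouse thymus. They were the ligands *Vegfa*, *Vegfb*, *Vegfc*, *Angpt1* and *Angpt2* and the receptors *Kdr*, *Flt1*, *Flt4*, *Tek* and *Tie1*, which are 10 of the 27998 genes in the count tables. The genes were chosen by name and pathway, ligands to be read in epithelial, mesenchymal and mural cells and receptors in endothelial cells. Thymic lobes were taken from C57BL/6 embryos at embryonic day 13 to 13.5 and dissociated with trypsin. There were 3 droplet libraries, 1 from wild-type embryos (control), 1 from embryos homozygous for the neo2 allele of *Tbx1* (Tbx1neo2/neo2, a model of a human deletion syndrome, with small thymic lobes) and 1 from embryos homozygous for the 1089 allele of *Foxn1* (Foxn11089/1089, hypoplastic lobes). The number of embryos pooled in each library is not given in the sources used here.

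VEGFA binds the receptor tyrosine kinases FLT1 and KDR on blood endothelium and drives the division, migration and permeability of endothelial cells. VEGFB binds FLT1, and VEGFC binds FLT4 and, once processed, KDR, and is best known for the growth of lymphatic vessels. Angiopoietin 1, made largely by mesenchymal and mural cells, activates TEK (also called TIE2) and steadies vessels, angiopoietin 2 acts on the same receptor as a weak agonist or antagonist, and TIE1 is an orphan receptor that pairs with TEK. In the fetal thymus, blood vessels and their mural cells enter the lobe with neural crest mesenchyme.

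The libraries held 82936619, 137498422 and 204655055 unique molecular identifiers (UMIs, each standing for 1 captured RNA molecule), in the order control, Tbx1neo2/neo2 and Foxn11089/1089. After cells with fewer than 200 genes or at least 20% mitochondrial UMIs had been left out, 5932, 5516 and 11772 cells remained, with a median of 13410.0, 20733 and 14652 UMIs. *Tbx1* itself was not lower in the Tbx1neo2/neo2 library, with 1.39, 4.81 and 5.43 counts per 1000000 UMIs (CPM) in the 3 libraries, so that library is called the library labelled Tbx1neo2/neo2. *Foxn1* had 38.4, 34.6 and 76.5 CPM. Between 17 and 28 barcodes were shared by each pair of libraries, at most 0.486% of a library. The library labelled Tbx1neo2/neo2 had the most cells under 2000 UMIs, 28.3% against 10.3% in the control and 12.4% in the Foxn11089/1089 library, and both other libraries had a higher median mitochondrial share than the control, 5.80% and 5.03% against 2.59%.

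Cells were put in classes by markers that include none of the 10 genes. A cell was Epcam-positive (epithelial), Pdgfra-positive (mesenchymal), Cdh5-positive (endothelial) or Ptprc-positive (hematopoietic) when it had a UMI of that gene, at least 3 markers of the class and at least 2 more markers than of any other class, with under 20% hemoglobin UMIs. Mural cells, the pericytes and smooth muscle of vessels, had *Rgs5* and at least 1000 CPM of *Rgs5*, *Acta2*, *Tagln* and *Actg2*, without *Cdh5* and with the same lead in markers. The markers were listed beforehand, and these limits were set after the counts had been seen. In the order of libraries above, there were 2027, 845 and 3846 Epcam-positive cells, 993, 1423 and 2750 Pdgfra-positive cells, 27, 322 and 49 mural cells, and 51, 101 and 119 Cdh5-positive cells. The Cdh5-positive cells had all 12 endothelial markers in each library, summing to 5303, 8074 and 5322 CPM, and the mural cells had all 14 mural markers in each library.

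The level of a gene in a class was its summed UMIs over the summed UMIs of all genes in those cells, in CPM. Brackets give 95% intervals that cover counting error only. With 1 library per genotype, no difference between genotypes could be checked against replicates, and no test was run. A ratio is that of the CPM in a library over the control. The median ratio over all genes with at least 30 UMIs lay above 1 in every class. It was 1.32 in Epcam-positive, 1.31 in Pdgfra-positive, 1.17 in mural and 1.33 in Cdh5-positive cells for the library labelled Tbx1neo2/neo2, and 1.24, 1.14, 1.17 and 1.18 for Foxn11089/1089. Ratios are therefore also given over that median.

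The promoters of 3 receptors are shown because the levels of *Tek* and *Tie1* in endothelial cells differed most between the libraries among the receptors, and *Kdr* was the receptor with the most UMIs. Each runs 5′ to 3′ from 250 bases before to 50 after the gene's start in RefSeq (GRCm38.p6). Capitals mark AGGAA or its reverse complement TTCCT, a form of the core that ETS transcription factors of endothelium (such as *Fli1* and *Erg*) bind. Other forms of the core were not marked or counted. *Tek* lies on chromosome 4 at chr4:94739039-94739338 (plus strand), *Tie1* on chromosome 4 at chr4:118489800-118490099 (minus strand) and *Kdr* on chromosome 5 at chr5:75978406-75978705 (minus strand).
Tek promoter: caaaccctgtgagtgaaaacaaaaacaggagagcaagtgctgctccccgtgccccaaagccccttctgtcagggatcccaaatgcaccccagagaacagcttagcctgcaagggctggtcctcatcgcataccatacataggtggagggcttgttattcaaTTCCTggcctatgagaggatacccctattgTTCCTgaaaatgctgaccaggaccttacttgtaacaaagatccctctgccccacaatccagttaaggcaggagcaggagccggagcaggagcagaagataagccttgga
Tie1 promoter: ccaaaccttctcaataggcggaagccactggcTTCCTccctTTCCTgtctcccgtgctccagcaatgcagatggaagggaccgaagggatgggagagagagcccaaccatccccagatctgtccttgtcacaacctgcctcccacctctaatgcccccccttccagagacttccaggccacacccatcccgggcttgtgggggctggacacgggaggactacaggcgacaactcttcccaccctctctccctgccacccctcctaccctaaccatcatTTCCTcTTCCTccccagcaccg
Kdr promoter: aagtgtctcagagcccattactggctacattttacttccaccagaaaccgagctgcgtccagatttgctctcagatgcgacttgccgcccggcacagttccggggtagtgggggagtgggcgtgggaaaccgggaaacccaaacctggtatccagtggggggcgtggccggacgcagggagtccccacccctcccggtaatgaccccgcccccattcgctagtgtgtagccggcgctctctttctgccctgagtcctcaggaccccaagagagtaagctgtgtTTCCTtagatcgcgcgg
*Tie1* held 4 such matches, *Tek* and *Flt1* 2 each, *Kdr* 1 and *Flt4* none in their windows. Of 32851 mouse promoter windows of the same length, 66.7% held at least 1 match, 33.7% at least 2 and 4.44% at least 4. A match is a description of the letters and not a binding site, and a window with no match says nothing of the factor. *Angpt1* and *Angpt2* were not matched in the promoter table, and their sequences are not shown.

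Among the ligands, *Vegfb* was the most abundant in Epcam-positive, Pdgfra-positive and mural cells of every library, at 75.5 to 159 CPM. *Vegfa* was found in epithelium and mesenchyme alike, and *Vegfc* had its highest level in mesenchyme, mural cells or endothelium depending on the library. *Angpt1* was found in mesenchymal, mural and hematopoietic cells of every library, and in epithelium most in the Foxn11089/1089 library. Mural cells had *Angpt1* at 14.6 (4 UMIs), 20.2 and 54.0 CPM. In the Foxn11089/1089 library this was 1.33 times the epithelial level, with an interval (0.982 to 1.77) that included 1. The level of *Angpt2* was highest in mural cells, although these held only 0.653%, 28.5% and 4.83% of its UMIs. These are levels of 3′ tags, of which 1 molecule gives 1 count whatever its length. The class with the highest level among epithelial, mesenchymal and mural cells was the same in all 3 libraries for 2 of the 5 ligands, *Vegfb* (Pdgfra-positive) and *Angpt2* (mural). The plot of ligands by class and library shows these levels.

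**Figure D1:**
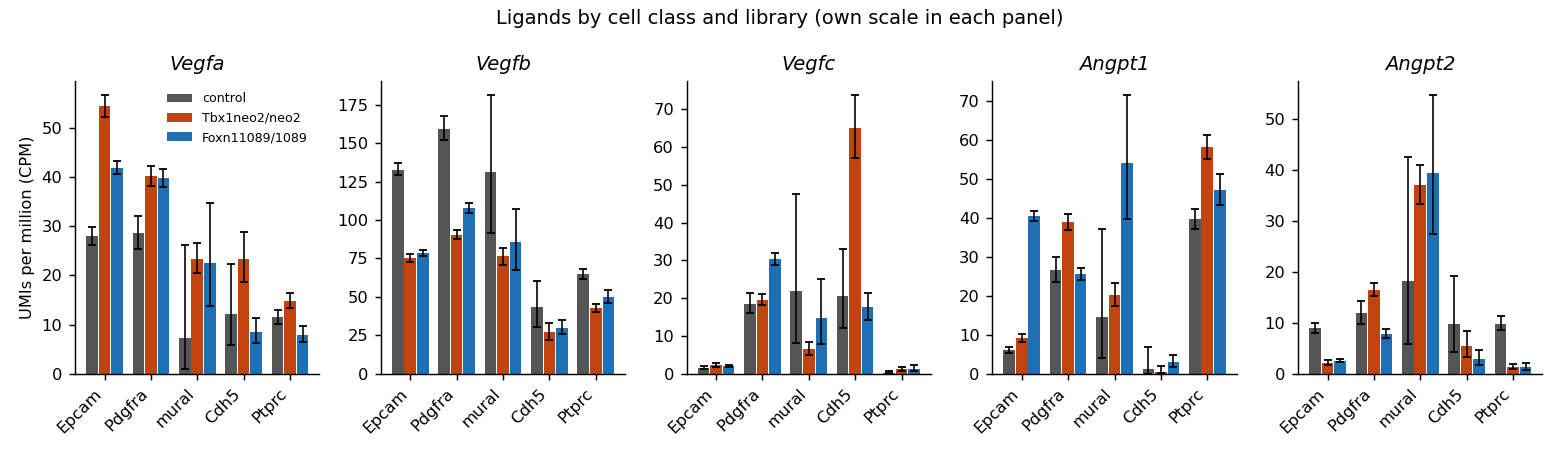
Bars give levels in CPM (linear axis from 0, with its own scale in each panel) of each ligand in 5 cell classes of the 3 libraries, and lines give exact Poisson 95% intervals for counting error. *Vegfb* was lower in both other libraries than in the control in each of the 5 classes, and *Angpt1* in Epcam-positive cells was highest in the Foxn11089/1089 library.

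*Vegfa* (chromosome 17) is the main angiogenic factor of the family. In Epcam-positive cells it reached 28.0 CPM (938 UMIs, 26.2 to 29.8) in the control library. It reached 54.5 CPM (2296 UMIs, 52.3 to 56.8) in the library labelled Tbx1neo2/neo2, and 41.9 CPM (3797 UMIs, 40.6 to 43.3) in the Foxn11089/1089 library. *Vegfa* was lowest in the control and highest in the library labelled Tbx1neo2/neo2, with intervals that did not overlap. The ratios were 1.95-fold (1.80 to 2.10) and 1.5-fold (1.39 to 1.61), or 1.47 and 1.20 times the median gene of the class. Neither passed 2-fold, and 81.5% and 64.1% of all genes had a lower ratio. With each cell thinned to 2000 UMIs, 5.98% (4.98 to 7.12%), 11.8% (9.63 to 14.2%) and 6.74% (5.96 to 7.58%) of Epcam-positive cells had a *Vegfa* UMI, against 33.2%, 75.3% and 43.6% before thinning. Thinning left out 38, 29 and 75 shallower cells. In red blood cells, which should lack it, the thinned shares were 0.602%, 0.557% and 0.343%, and the median red blood cell had 8610, 18641 and 12501 UMIs against 16127, 43968 and 20168 in Epcam-positive cells.

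In Pdgfra-positive cells *Vegfa* stood at 28.7 CPM (25.5 to 32.2) in the control, at 40.2 CPM (38.2 to 42.3) in the library labelled Tbx1neo2/neo2 and 39.8 (37.9 to 41.8) in the Foxn11089/1089 library. Its ratios of 1.40 and 1.39 were near the median gene, at 1.07 and 1.21 times it. Epithelium and mesenchyme of the control could not be told apart in *Vegfa*, with a ratio of 1.03 (0.895 to 1.17). In the library labelled Tbx1neo2/neo2 the epithelial level was the higher, by 1.36 (1.27 to 1.45), and in the Foxn11089/1089 library the interval again included 1, at 1.05 (0.993 to 1.12). Of all *Vegfa* UMIs of kept cells, 54.3%, 47.1% and 59.9% lay in Epcam-positive cells.

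Within the epithelium, *Vegfa* was highest in cells with parathyroid markers. The parathyroid forms from the same pouch as the thymus, and its markers here were *Gcm2*, *Pth*, *Chga*, *Casr* and *Spp1*. Epcam-positive cells with a UMI of at least 3 of them numbered 26 in the control and 433 in the Foxn11089/1089 library, and none was found in the library labelled Tbx1neo2/neo2. Their *Vegfa* level was 99.7 CPM (68.2 to 141) and 93.9 CPM (89.2 to 98.9), which was 3.6-fold (2.45 to 5.13) and 2.92-fold (2.63 to 3.23) the level of cells of the same library with none of the markers. These cells thus held the highest *Vegfa* level of both libraries, and the counts of cells differed between them. In Epcam-positive cells with none of the parathyroid markers, *Vegfa* was at 27.7, 54.4 and 32.2 CPM in the control, the library labelled Tbx1neo2/neo2 and the Foxn11089/1089 library, for ratios of 1.97 (1.81 to 2.13) and 1.16 (1.04 to 1.30). The cells with at least 3 markers held 32 of 938 *Vegfa* UMIs in the control. Leaving them out could therefore change the ratio of the library labelled Tbx1neo2/neo2 little. Cells with none held 825 of the 938 UMIs in the control but 499 of 3797 in the Foxn11089/1089 library. Parathyroid markers also summed to 7.44, 0 and 116 CPM in red blood cells. The 0-marker ratio of the Foxn11089/1089 library thus compares unlike selections of cells. The library labelled Tbx1neo2/neo2 held 108 Epcam-positive cells with at least 3 thyroid markers, with *Vegfa* at 63.0 CPM. Leaving out parathyroid, thyroid and lung or airway cells together gave ratios of 1.93 and 1.14.

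*Vegfb* (chromosome 19), a FLT1 ligand linked to heart and fat metabolism, was lower in both other libraries than in the control in each of the 5 classes other than red blood cells. In red blood cells it had 11, 12 and 68 UMIs, and the ratios of 0.550 (0.222 to 1.38) and 0.791 (0.415 to 1.66) had intervals that included 1. In Epcam-positive cells it stood at 133 CPM (4451 UMIs, 129 to 137) in the control, 75.5 CPM (3181 UMIs, 72.9 to 78.2) in the library labelled Tbx1neo2/neo2 and 78.5 CPM (7108 UMIs, 76.7 to 80.3) in the Foxn11089/1089 library, ratios of 0.569 (0.543 to 0.595) and 0.591 (0.569 to 0.614). In Pdgfra-positive cells the levels were 159, 90.4 and 108 CPM, ratios of 0.567 (0.534 to 0.602) and 0.676 (0.638 to 0.716). In mural cells they were 131, 76.3 and 85.4 CPM, ratios of 0.582 (0.417 to 0.838) and 0.652 (0.433 to 0.999). The control was the highest library in each of these classes. None of these ratios reached 0.5, but over the median gene the epithelial values were 0.429 and 0.475, with only 5.73% and 10.1% of genes lower.

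*Vegfc* (chromosome 8) had most of its UMIs in mesenchyme, although its level was not highest there in every library. Pdgfra-positive cells held 56.9%, 57.4% and 68.5% of its UMIs, at 18.5 CPM (186 UMIs, 16.0 to 21.4) in the control, 19.5 CPM (718 UMIs, 18.1 to 21.0) in the library labelled Tbx1neo2/neo2 and 30.3 CPM (1260 UMIs, 28.7 to 32.0) in the Foxn11089/1089 library. The ratios were 1.05 (0.893 to 1.24) and 1.64 (1.40 to 1.92), so the Foxn11089/1089 library alone lay above the control beyond counting error. With median-of-ratios size factors the first ratio was 0.804, below 1. Epcam-positive cells had 1.49, 2.33 and 1.99 CPM, the lowest of the sources. The Cdh5-positive cells of the library labelled Tbx1neo2/neo2 were the richest in *Vegfc* of all classes, at 65.0 CPM (240 UMIs, 57.0 to 73.8). The control and Foxn11089/1089 endothelium had 20.6 CPM (17 UMIs) and 17.5 CPM (101 UMIs), ratios of 3.16 (1.93 to 5.51) and 0.852 (0.507 to 1.52).

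*Angpt1* (chromosome 15), the TEK agonist, had the largest ratio of the 5 ligands over all Epcam-positive cells. Epcam-positive cells had 6.06 CPM (203 UMIs, 5.25 to 6.95) in the control and 9.14 CPM (385 UMIs, 8.25 to 10.1) in the library labelled Tbx1neo2/neo2. In the Foxn11089/1089 library the level was 40.5 CPM (3665 UMIs, 39.2 to 41.8). That library stood far above both others, and no interval overlapped another. The ratio was 6.68-fold (5.80 to 7.73) in the Foxn11089/1089 library, 5.37 times the median gene, with 97.4% of genes lower. In the library labelled Tbx1neo2/neo2 it was 1.51-fold (1.27 to 1.80), 1.14 times the median gene. Thinned to 2000 UMIs, 1.36% (27 of 1989), 2.21% (18 of 816) and 7.80% (294 of 3771) of Epcam-positive cells had an *Angpt1* UMI.

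The high *Angpt1* of the Foxn11089/1089 epithelium lay outside the parathyroid cells. It was 46.6 CPM with no parathyroid marker and 17.2 CPM with at least 3, a ratio within the library of 0.369-fold (0.32 to 0.425). Cells with a *Foxn1* UMI, which marks thymic epithelium, had 5.91, 10.7 and 45.7 CPM in the control, the library labelled Tbx1neo2/neo2 and the Foxn11089/1089 library, and cells without one 6.38, 4.36 and 22.8. *Angpt1* was thus higher in the Foxn1-expressing cells of the Foxn11089/1089 library, by 2.0-fold (1.82 to 2.21). In the library labelled Tbx1neo2/neo2 the step was 2.45-fold (1.79 to 3.43), and the control showed none, at 0.926-fold (0.686 to 1.26). Among cells without a UMI of *Ptprc* or *Pdgfra*, which mark the other classes rich in *Angpt1*, the ratio of the Foxn11089/1089 library over the control was 6.96 (6.03 to 8.07).

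**Figure D2:**
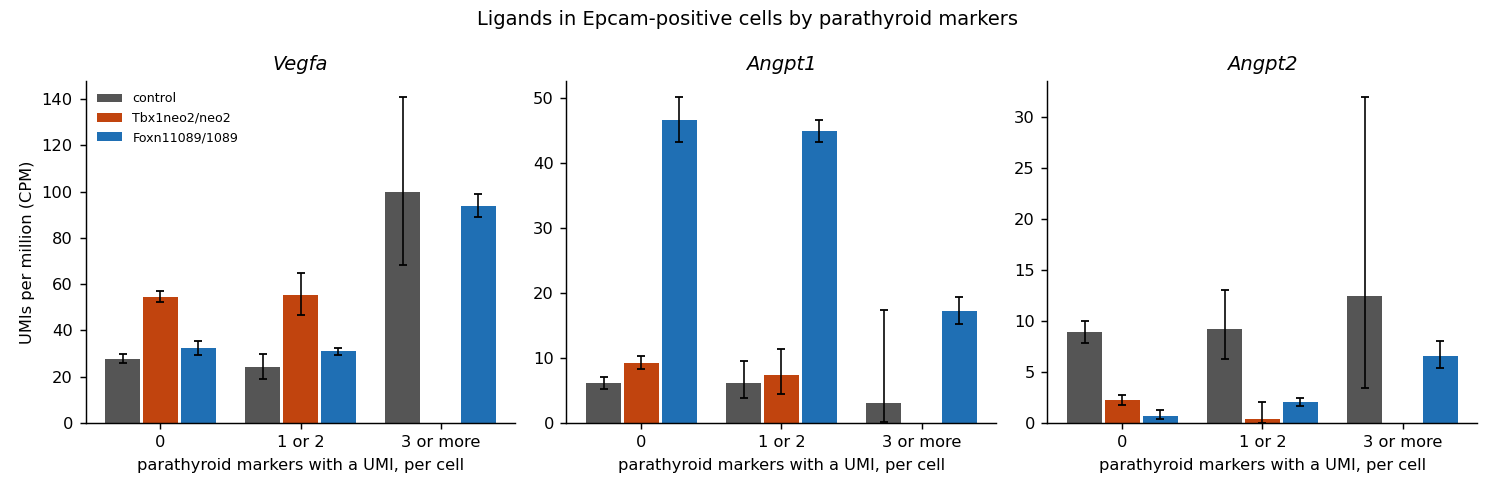
Bars give levels in CPM (linear axis from 0) of *Vegfa*, *Angpt1* and *Angpt2* in Epcam-positive cells grouped by the number of parathyroid markers with a UMI, with exact Poisson 95% intervals for counting error. *Vegfa* is highest at 3 or more markers in the control and Foxn11089/1089 libraries, *Angpt1* is highest in Foxn11089/1089 cells with 0 to 2 markers, and the library labelled Tbx1neo2/neo2 has no cell with 3 or more.

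In Pdgfra-positive cells *Angpt1* was at 26.5 CPM (266 UMIs, 23.4 to 29.9), 38.9 CPM (1433 UMIs, 36.9 to 40.9) and 25.7 CPM (1067 UMIs, 24.1 to 27.2) in the control, the library labelled Tbx1neo2/neo2 and the Foxn11089/1089 library. The ratios were 1.47 (1.29 to 1.68) and 0.968 (0.846 to 1.11), and the first of them was 1.12 times the median gene. The interval of the Foxn11089/1089 mesenchyme included 1, unlike that of its epithelium. In that library 61.2% of all *Angpt1* UMIs came from Epcam-positive cells, against 11.9% for the control and 10.9% for the library labelled Tbx1neo2/neo2.

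*Angpt2* (chromosome 8) was most abundant in mural cells, with 18.2 CPM from 5 UMIs in the control, 37.0 CPM (352 UMIs, 33.2 to 41.1) in the library labelled Tbx1neo2/neo2 and 39.3 CPM (35 UMIs, 27.4 to 54.7) in the Foxn11089/1089 library. The mural level was above the mesenchymal one by 2.24 (1.96 to 2.56) and 5.0 (3.43 to 7.10) in the last 2 libraries. In the control the 2 classes could not be told apart, at 1.53 (0.489 to 3.68). In Epcam-positive cells the control library had the highest *Angpt2* level. The control had 8.92 CPM (299 UMIs, 7.94 to 9.99), the library labelled Tbx1neo2/neo2 2.11 CPM (89 UMIs, 1.70 to 2.60) and the Foxn11089/1089 library 2.57 CPM (233 UMIs, 2.25 to 2.92). The ratios were 0.237 (0.185 to 0.301) and 0.288 (0.242 to 0.343), and 0.632% and 2.90% of genes were lower. Of the 233 UMIs in Foxn11089/1089 epithelium, 102 lay in cells with at least 3 parathyroid markers (6.57 CPM). Another 120 lay in cells with 1 or 2 (2.01 CPM) and 11 in cells with none (0.71 CPM). Those with none had 0.0802 times (0.0395 to 0.146) the level of control cells with none. Such control cells held 264 of the 299 control UMIs. Parathyroid markers were also found in Foxn11089/1089 red blood cells, at 116 CPM against 7.44 CPM in the control. The value of 0.0802 therefore compares unlike selections of cells, as for *Vegfa*.

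In Pdgfra-positive cells *Angpt2* was 11.9, 16.5 and 7.86 CPM, ratios of 1.39 (1.14 to 1.71) and 0.663 (0.536 to 0.825). *Angpt2* (18690263 to 18741562, minus strand, GRCm38) lies inside *Mcph1*, a gene on the plus strand, and it is not stated whether counting used strand, so reads of the overlapping genes cannot be told apart. *Mcph1* itself was at 17.4, 20.01 and 16.0 CPM in Epcam-positive cells and 7.57, 10.8 and 10.3 CPM in Pdgfra-positive cells. *Angpt1* overlaps an antisense RNA, *Gm17473*, and the other 8 genes overlap no other gene in the annotation (GENCODE, GRCm38).

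The mural cells gave the least certain values, since the control held only 27 of them, with 2 to 36 UMIs of each ligand. Parathyroid markers summed to 7.28 CPM in control, 0.315 CPM in Tbx1neo2/neo2-labelled and 2985 CPM in Foxn11089/1089 mural cells, with 1, 2 and 4 of the 5 markers found, and their part in the mural values was not tested. Within the library labelled Tbx1neo2/neo2, which held 322 mural cells, *Angpt1* was higher in the 129 cells with more pericyte than smooth muscle markers, at 35.0 CPM against 5.03 CPM in the 83 cells with more smooth muscle markers, a ratio of 6.96-fold (3.43 to 16.4). *Angpt2* was 39.0 and 34.6 CPM in the same cells, a ratio of 1.13-fold (0.824 to 1.56). *Angpt1* thus differed between the pericyte-leaning and smooth muscle-leaning cells of that library beyond counting error, and the interval for *Angpt2* included 1. The 17 and 19 such cells of the Foxn11089/1089 library had *Angpt1* at 88.4 and 37.6 CPM, a ratio of 2.35-fold (1.15 to 5.12).

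Ligands past 2-fold were counted among the 5, with at least 30 UMIs in the 2 libraries compared, beside the share of all genes past it. In Epcam-positive cells of the library labelled Tbx1neo2/neo2 none was at least 2-fold higher, against 17.1% of all genes, and 1, *Angpt2*, was at least 2-fold lower, against 3.69%. In those of the Foxn11089/1089 library *Angpt1* was higher, against 19%, and *Angpt2* lower, against 7.03%. In Pdgfra-positive cells no ligand passed 2-fold in either library, where 18.4% of genes were higher and 3.5% lower in the library labelled Tbx1neo2/neo2, and 6.23% higher and 3.92% lower in the Foxn11089/1089 library. In mural cells *Vegfa* (3.22, 0.881 to 26.8) and *Angpt2* (2.03, 0.863 to 6.30) were higher and *Vegfc* (0.298, 0.13 to 0.844) lower in the library labelled Tbx1neo2/neo2, against 27.9% and 4.87% of genes, and only the interval of *Vegfc* excluded 1. Of the 3 ligands with enough UMIs in Foxn11089/1089 mural cells, *Angpt1* (3.71, 1.36 to 14.2) and *Angpt2* (2.16, 0.844 to 7.07) were higher, against 17.3% of genes higher and 2.84% lower. With a limit of 2000 CPM for the summed mural level, chosen after the data were seen, 1 ligand passed 2-fold in each library.

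**Figure D3:**
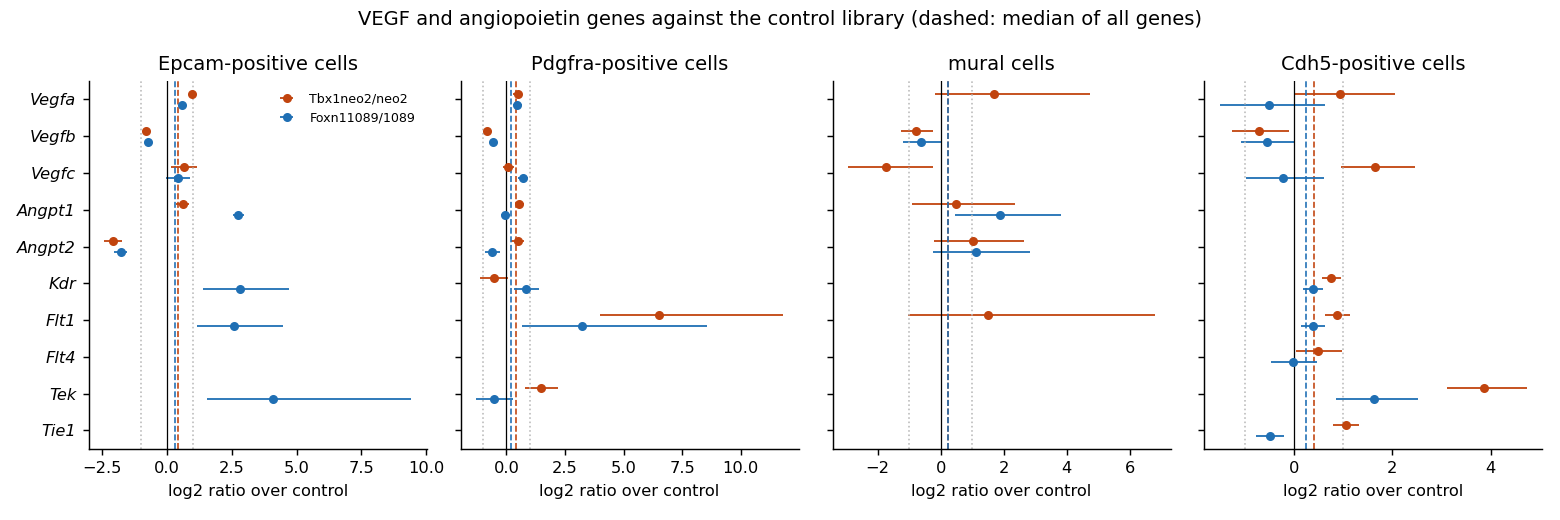
Points give the log2 ratio of the CPM in each of the other 2 libraries over the control, by cell class and with its own scale in each panel, for genes with at least 30 UMIs in the 2 libraries, and lines give exact conditional binomial 95% intervals. Dashed lines mark the median of all genes and dotted lines 2-fold, and the intervals of *Angpt2* in Epcam-positive cells lie wholly below 0 in both libraries while that of *Tek* in Cdh5-positive cells lies wholly above 0 in both.

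The receptors were read in Cdh5-positive cells, which held most of their UMIs except those of *Tek* in the control. *Tie1* was the most confined, with 98.4%, 97.5% and 95.3% of its UMIs in Cdh5-positive cells of the control, the library labelled Tbx1neo2/neo2 and the Foxn11089/1089 library, which are under 2% of the kept cells of each library. *Kdr* had 81.4%, 89.5% and 82.2% there, *Flt4* 80.4%, 91.3% and 87.1%, and *Flt1* 82.1%, 70.3% and 86.6%. *Tek* was the least confined in the control and the Foxn11089/1089 library, at 29.8%, 75.1% and 68.5%. Pdgfra-positive cells held 42.6%, 16.8% and 12.9% of the *Tek* UMIs, 20 of 47 in the control against 14 in Cdh5-positive cells.

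*Tek*, the angiopoietin receptor, differed most. Control Cdh5-positive cells had 17.0 CPM (14 UMIs, 9.27 to 28.5). Those of the library labelled Tbx1neo2/neo2 had 247 CPM (912 UMIs, 231 to 264), and those of the Foxn11089/1089 library 52.5 CPM (302 UMIs, 46.7 to 58.7). The 3 intervals did not overlap, and the library labelled Tbx1neo2/neo2 was the highest. The ratios over the control were 14.6-fold (8.63 to 26.7) and 3.09-fold (1.82 to 5.73), or 11.0 and 2.62 times the median gene, and 98.3% and 95.2% of genes had a lower ratio. Thinned to 2000 UMIs, 4.17% (2 of 48), 36.8% (35 of 95) and 12.9% (15 of 116) of Cdh5-positive cells had a *Tek* UMI, with intervals of 0.509 to 14.3%, 27.2 to 47.4% and 7.42 to 20.4%. Over all cells a *Tek* UMI was found in 23.5%, 82.2% and 68.9% of them, where the median cell had 17013, 22088 and 43003 UMIs, and thinning left out 3, 6 and 3 cells. No thinned red blood cell had a *Tek* UMI, which allows shares of up to 0.904%, 0.836% and 0.147%.

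*Tie1*, the partner of TEK, did not follow it in the Foxn11089/1089 library. Its levels were 154 CPM (127 UMIs, 128 to 183) in the control, 319.9 CPM (1181 UMIs, 302 to 339) in the library labelled Tbx1neo2/neo2 and 109 CPM (628 UMIs, 101 to 118) in the Foxn11089/1089 library. The first of the other 2 libraries lay above the control and the second below it. The ratios were 2.08-fold (1.73 to 2.52) and 0.709-fold (0.585 to 0.865), or 1.57 and 0.601 times the median gene. With median-of-ratios size factors in place of total UMIs, the ratio of the library labelled Tbx1neo2/neo2 was 1.54 and no longer past 2-fold. The thinned shares of cells with a UMI were 33.3% (16 of 48), 44.2% (42 of 95) and 19.0% (22 of 116).

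The 3 VEGF receptors differed less. *Kdr*, the main signalling receptor for VEGFA, had 291 CPM (240 UMIs, 255 to 330.0) in the control, 491 CPM (1812 UMIs, 468 to 514) in the library labelled Tbx1neo2/neo2 and 380.1 CPM (2188 UMIs, 364 to 396) in the Foxn11089/1089 library. Its ratios were 1.69-fold (1.47 to 1.94) and 1.31-fold (1.14 to 1.5), near the median gene at 1.27 and 1.11 times it. *Flt1*, which binds VEGFA and VEGFB and can act as a decoy, had 183 CPM (155 to 215), 336 (317 to 355) and 238 (225 to 251), ratios of 1.84-fold (1.55 to 2.19) and 1.30-fold (1.10 to 1.55). *Flt4*, the VEGFC receptor of lymphatic and growing endothelium, had 54.5 (39.8 to 73.0), 76.6 (68.0 to 86.1) and 54.0 CPM (48.2 to 60.4), ratios of 1.41-fold (1.02 to 1.97) and 0.991-fold (0.723 to 1.39). All 3 were highest in the library labelled Tbx1neo2/neo2 by summed UMIs and none of them passed 2-fold, but with each cell weighted equally the ratios of *Kdr* were 0.913 and 0.947, that of *Flt1* in the Foxn11089/1089 library 0.933 and that of *Flt4* in the library labelled Tbx1neo2/neo2 0.548, all below 1. The thinned shares of cells with a *Kdr* UMI, 37.5% (18 of 48), 45.3% (43 of 95) and 50.9% (59 of 116), had overlapping intervals, and no order is read from them.

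**Figure D4:**
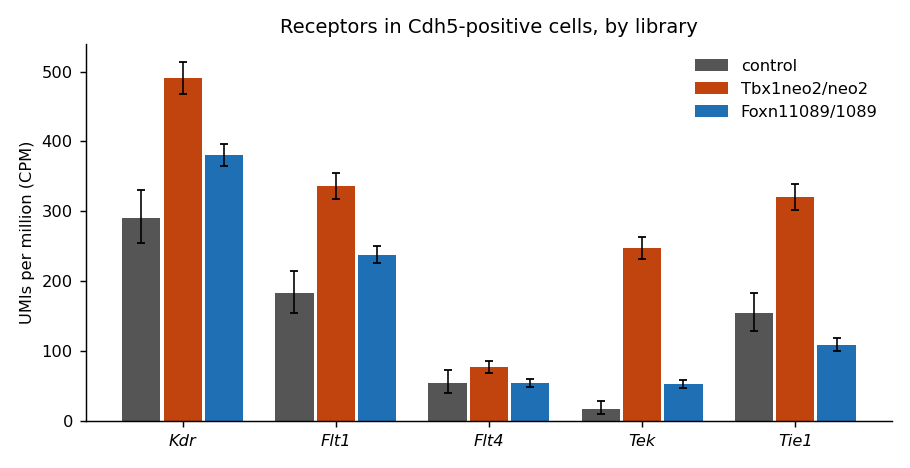
Bars give levels in CPM (linear axis from 0) of the 5 receptors in the 51, 101 and 119 Cdh5-positive cells of the control, Tbx1neo2/neo2 and Foxn11089/1089 libraries, with exact Poisson 95% intervals for counting error. *Tek* stands at 17.0 CPM in control cells against 247 CPM in those of the library labelled Tbx1neo2/neo2, while *Kdr* spans 291 to 491.

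Of the 5 receptors, all with at least 30 UMIs, 2 (*Tek* and *Tie1*) were at least 2-fold higher in Cdh5-positive cells of the library labelled Tbx1neo2/neo2, where 27.1% of all genes were, and none was 2-fold lower, against 4.3%. In the Foxn11089/1089 library 1 (*Tek*) was higher, against 16.3%, and none lower, against 4.38%. Of the 3 ligands counted there, *Vegfc* alone passed 2-fold, in the library labelled Tbx1neo2/neo2. The receptors together summed to 699, 1470.1 and 834 CPM, and all 5 were found in 5 of 51, 32 of 101 and 57 of 119 Cdh5-positive cells, counts that move with depth as well.

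The endothelium of the 3 libraries did not have the same makeup. Arterial markers (7 genes, all with UMIs except *Bmx* in the control) summed to 526, 1088 and 305 CPM, and lymphatic markers (6 of 6 with UMIs) to 829, 561 and 185 CPM. Venous markers (4 of 4, namely *Nr2f2*, *Ephb4*, *Aplnr* and *Nrp2*) summed to 528, 815 and 488 CPM. *Nr2f2* did not follow the venous sum in the cluster, described below, that held most Cdh5-positive cells. It was at 252, 217 and 119 CPM there. *Prox1*, which defines lymphatic endothelium, did not follow the sum of its list and was at 15.8, 62.8 and 14.9 CPM, highest in the library labelled Tbx1neo2/neo2. The lymphatic list also summed to 334, 102 and 705 CPM in Epcam-positive cells. Its sum is thus not particular to endothelium, and no share of lymphatic cells is read from it. The arterial connexin gene *Gja5* was at 13.3, 98.3 and 7.30 CPM, and *Cytl1*, an endocardial and arterial gene, at 0, 222 and 8.69 CPM. *Malat1*, a nuclear RNA, stood at 3542, 12871 and 3393 CPM and the median mitochondrial share at 3.23%, 7.46% and 5.01%, both highest in the library labelled Tbx1neo2/neo2. Their part in the receptor levels was not tested, and the values in cells with and without *Gja5*, *Bmx* or *Cytl1* follow. That split leaves out other arterial markers. *Gja4*, which it does not use, was at 228, 82.0 and 38.5 CPM in the cluster, described below, that held most Cdh5-positive cells. Cells without *Gja5*, *Bmx* and *Cytl1* are therefore not read as free of arterial genes.

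Cdh5-positive cells were therefore split, after the counts had been seen, by a UMI of *Gja5*, *Bmx* or *Cytl1*. Cells with one numbered 5, 62 and 8, and cells without 46, 39 and 111. Within the library labelled Tbx1neo2/neo2, *Tek* was 3.33-fold (2.83 to 3.92), *Vegfc* 3.27-fold (2.39 to 4.54) and *Tie1* 1.99-fold (1.76 to 2.26) as high in the cells with one, while *Flt4* was 0.504-fold (0.392 to 0.646) and *Kdr* 0.76-fold (0.692 to 0.834). The Foxn11089/1089 library showed the same side for *Tek*, 2.76-fold (2.05 to 3.67), and for *Tie1*, 1.62-fold (1.26 to 2.04), but its *Kdr* was 1.25-fold (1.08 to 1.44).

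Among the cells without *Gja5*, *Bmx* and *Cytl1*, *Tek* stood at 18.9, 110.4 and 45.7 CPM in the control, the library labelled Tbx1neo2/neo2 and the Foxn11089/1089 library. Its ratios were 5.83 (3.39 to 10.9) and 2.41 (1.41 to 4.48), so *Tek* kept its order of libraries with a smaller ratio in the library labelled Tbx1neo2/neo2. *Tie1* was 154, 209 and 104 CPM, ratios of 1.36 (1.10 to 1.69) and 0.673 (0.549 to 0.831), the first no longer past 2-fold. *Kdr* was 275, 563 and 372 CPM, and its ratio in the library labelled Tbx1neo2/neo2, 2.05 (1.76 to 2.40), now passed 2-fold. *Vegfc* was 17.6, 29.5 and 15.7 CPM, with a ratio of 1.68 (0.899 to 3.36) whose interval included 1.

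**Figure D5:**
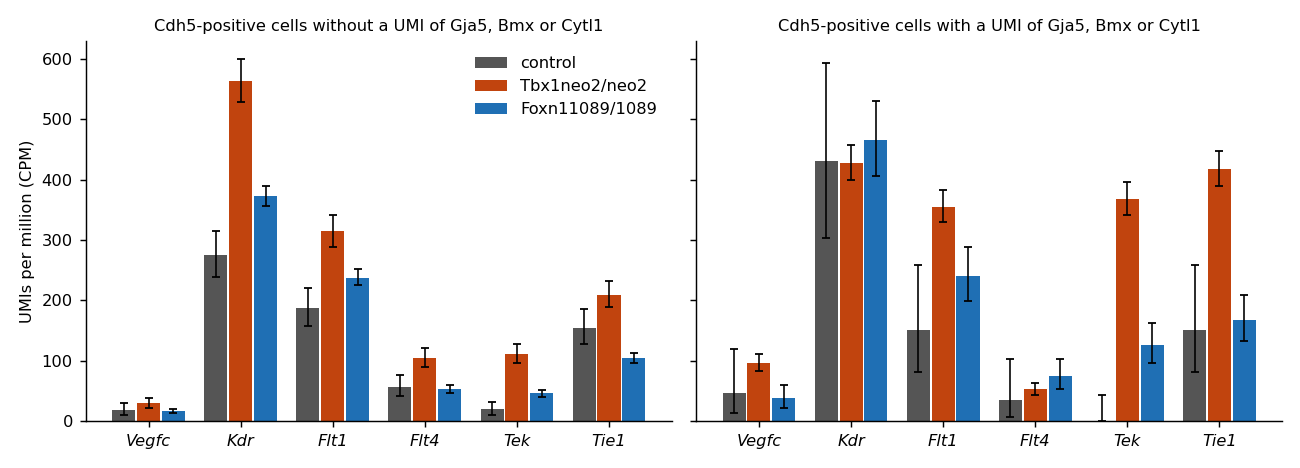
Bars give levels in CPM (linear axis from 0, shared by both panels) of *Vegfc* and the receptors in Cdh5-positive cells without (left) and with (right) a UMI of *Gja5*, *Bmx* or *Cytl1*, with exact Poisson 95% intervals for counting error. The right panel rests on 5, 62 and 8 cells, and *Tek* is highest in the library labelled Tbx1neo2/neo2 in both panels.

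Clusters of the 3 integrated libraries, with the 10 genes kept out of the variable genes, were also read. In the cluster that held most Cdh5-positive cells, with 47, 44 and 117 cells, *Tek* was at 17.2, 116 and 46.9 CPM, ratios of 6.76 (3.96 to 12.5) and 2.72 (1.60 to 5.05). *Tie1* there had ratios of 1.5 (1.24 to 1.83) and 0.666 (0.549 to 0.813), and *Kdr* of 2.10 (1.83 to 2.42) and 1.30 (1.14 to 1.49). Another cluster, of 54 cells of the library labelled Tbx1neo2/neo2, 3 of the Foxn11089/1089 library and none of the control, was led by *Fbln5*, *Eln* and *Fbln2*, genes of elastic fibers, and had *Tek* at 538 CPM, *Tie1* at 501 and *Vegfc* at 136 CPM in the library labelled Tbx1neo2/neo2. The arterial marker *Gja4* was at 1102 CPM and the venous marker *Nr2f2* at 2.56 CPM there in that library. In the cluster that held most Cdh5-positive cells they were at 82.0 and 217 CPM in the same library. The 3 Foxn11089/1089 cells had *Gja4* at 764 CPM, *Nr2f2* at 21.5 CPM (2 UMIs) and *Tek* at 323 CPM. The cluster was nearly all of 1 library, and whether it stands for a cell type or for that library was not tested. A further cluster with endothelial markers held 20, 99 and 39 cells of low depth, with a median of 1084, 897 and 910.0 UMIs, of which 4, 7 and 3 were in the Cdh5-positive class, and stays unnamed. *Kdr* had 7, 4 and 2 UMIs there and ratios of 0.141 (0.0303 to 0.556) and 0.156 (0.0159 to 0.822), below 1, and *Tek* had 0, 3 and 1. *Cdh5* itself was at 421, 104 and 71.0 CPM in this cluster, and the part of cells outside the endothelial class in these ratios was not tested. Cells with at least 3 lymphatic markers numbered 2, 7 and 10 and had *Flt4* at 169 (62.1 to 368), 208 (175 to 245) and 92.8 CPM (72.0 to 118).

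Receptors were also counted outside the endothelium. In Pdgfra-positive cells *Flt1* had 1 UMI in the control, 333 in the library labelled Tbx1neo2/neo2 (9.04 CPM, 8.09 to 10.1) and 39 in the Foxn11089/1089 library (0.938 CPM). The ratios over that single UMI were 90.7 (16.2 to 3592) and 9.41 (1.59 to 381). The level of *Flt1* in these cells was far under the 336 CPM of the endothelium. *Tie1* had 4 UMIs in the Pdgfra-positive cells of the library labelled Tbx1neo2/neo2, and 309 of its 333 *Flt1* UMIs lay in those without a UMI of *Cdh5*, *Pecam1* or *Tie1*. The source of these UMIs was not tested. Pdgfra-positive cells with a cartilage marker (*Sox9*, *Col2a1* or *Acan*) numbered 230, 770 and 947. In the library labelled Tbx1neo2/neo2, *Flt1* was 3.96-fold (2.95 to 5.39) as high in them as in cells without one, which gave 3.40 CPM (2.56 to 4.42). In the Foxn11089/1089 library, with 15 and 24 *Flt1* UMIs in cells with and without a marker, the interval of this ratio was 0.488 to 1.99 and included 1. The control had 0 and 1 UMIs, too few to compare.

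*Tek* in Pdgfra-positive cells was at 1.99 (1.22 to 3.08), 5.54 (4.80 to 6.35) and 1.37 CPM (1.04 to 1.78), and *Kdr* at 3.59 (2.51 to 4.97), 2.47 (1.99 to 3.03) and 6.42 CPM (5.67 to 7.24). Red blood cells had at most 0.144 CPM of *Tek* and 0.433 CPM of *Kdr*. Of the 3 receptors with at least 30 UMIs in Pdgfra-positive cells, 2 (*Flt1* and *Tek*) were at least 2-fold higher in the library labelled Tbx1neo2/neo2 and 1 (*Flt1*) in the Foxn11089/1089 library, beside the shares of all genes given above for this class. In Epcam-positive cells of the Foxn11089/1089 library, 66 of the 75 *Kdr* UMIs and 42 of the 46 *Tek* UMIs lay in the 433 cells with at least 3 parathyroid markers, where *Tie1* had 1. Of the 64 *Flt1* UMIs, 60 lay in cells with a *Foxn1* UMI. The control had 4, 1 and 4 UMIs of *Kdr*, *Tek* and *Flt1* in its Epcam-positive cells, and the 3 ratios were 6.94 (2.60 to 26.1), 17.0 (2.91 to 687) and 5.92 (2.20 to 22.4). In Epcam-positive cells of the library labelled Tbx1neo2/neo2 and the control together no receptor reached 30 UMIs.

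Mural cells had few receptor UMIs. *Flt1* had 1, 97 and 5 UMIs in the control, the library labelled Tbx1neo2/neo2 and the Foxn11089/1089 library, and the ratio of the second was 2.80 (0.491 to 112). *Kdr* had 0, 58 and 2 UMIs, and the 6.09 CPM of the library labelled Tbx1neo2/neo2 lay under the 10.9 CPM that a count of 0 allows in the control. *Tek* had 1, 15 and 6 UMIs, and *Flt4* and *Tie1* had at most 2. No difference from the control mural cells could be detected in *Flt1*, *Kdr* or *Tek* at this depth.

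The endothelium also held ligands. *Vegfb* was the most abundant of them in control and Foxn11089/1089 Cdh5-positive cells, at 43.6 CPM (36 UMIs, 30.5 to 60.4) and 29.9 CPM (172 UMIs, 25.6 to 34.7), with 26.8 CPM (99 UMIs, 21.8 to 32.6) in the library labelled Tbx1neo2/neo2. *Vegfa* was at 12.1 CPM (10 UMIs, 5.81 to 22.3), 23.3 CPM (86 UMIs, 18.6 to 28.8) and 8.51 CPM (49 UMIs, 6.30 to 11.3) in the order of libraries above, lower than in epithelium in all 3. *Angpt2*, which sprouting endothelium is known to make, had 8, 20 and 17 UMIs (9.69, 5.42 and 2.95 CPM), and *Angpt1* 1, 2 and 17. The *Angpt2* intervals of 4.18 to 19.1, 3.31 to 8.37 and 1.72 to 4.73 CPM lay under that of the mural cells in the library labelled Tbx1neo2/neo2 and in the Foxn11089/1089 library and overlapped it in the control.

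Other genes of the pathway, partners and regulators, were taken from a list of 27 other genes, with the same 30 UMIs as a minimum. In Cdh5-positive cells 22 were counted. In the library labelled Tbx1neo2/neo2 8 were at least 2-fold higher and 2 lower, where 27.1% and 4.3% of all genes were, with a median ratio of 1.65 against 1.33 for all genes. In the Foxn11089/1089 library none was higher and 2 were lower, where 16.3% and 4.38% of genes were, with a median of 1.22 against 1.18. *Ptprb*, the endothelial phosphatase that acts on TEK, had 30 and 1396 UMIs in the control and the library labelled Tbx1neo2/neo2, a ratio of 10.4 (7.25 to 15.5). Most of its UMIs in that library came from the cluster led by *Fbln5*, at 899 CPM, and in the cluster that held most Cdh5-positive cells *Ptprb* was at 36.9, 137 and 47.2 CPM. The VEGF coreceptors *Nrp1* (3.19, 2.68 to 3.83) and *Nrp2* (2.40, 1.90 to 3.07), the apelin receptor *Aplnr* (2.41, 1.98 to 2.96), the arterial factor *Sox17* (2.11, 1.70 to 2.66), *Foxo1* (3.39, 2.10 to 5.81) and the hypoxia factors *Epas1* (2.76, 2.01 to 3.87) and *Arnt* (2.86, 1.45 to 6.40) were the others above 2-fold. The ETS factor gene *Fli1* was lower in both libraries, at 0.401 (0.35 to 0.46) and 0.38 (0.335 to 0.433).

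In Epcam-positive cells 17 of the 27 were counted in the library labelled Tbx1neo2/neo2, with 6 higher and none lower, where 17.1% and 3.69% of all genes were (median 1.40 against 1.32), and 21 in the Foxn11089/1089 library, with 9 higher and 1 lower, where 19% and 7.03% were (median 1.78 against 1.24). *Pgf*, a further FLT1 ligand, had 0.746 and 5.25 CPM in the control and the library labelled Tbx1neo2/neo2, a ratio of 7.03 (4.64 to 11.1), and a ratio of 3.70 (2.45 to 5.83) in the Foxn11089/1089 library. *Nrp2* had ratios of 9.39 (6.46 to 14.1) and 2.57 (1.74 to 3.90), and *Nrp1* of 2.26 and 4.07. Parathyroid markers summed to 977, 1.21 and 7969 CPM in Epcam-positive cells of the control, the library labelled Tbx1neo2/neo2 and the Foxn11089/1089 library, and their part in these ratios was not tested. In the Foxn11089/1089 library *Figf* (VEGFD, 7.35), *Ccbe1*, which helps process VEGFC (8.55), *Epas1* (10.3), *Aplnr* (11.3), *Eng* (7.71) and *Notch1* (2.03) were also higher, and the Notch ligand *Dll4* was lower (0.399). *Foxo1* was the remaining gene of at least 100 UMIs that was higher in the library labelled Tbx1neo2/neo2 (2.02).

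In Pdgfra-positive cells 19 of the 27 were counted in the library labelled Tbx1neo2/neo2, with 8 higher and none lower, where 18.4% and 3.5% of all genes were, and the list's median of 1.31 equalled that of all genes. *Nrp2* (5.39, 4.51 to 6.49), *Svep1*, a matrix protein needed for lymphatic growth (3.94, 2.84 to 5.63), *Figf* (2.70), *Pgf* (2.20) and *Foxo1* (2.22) were among them. *Erg*, an ETS factor of endothelium and cartilage, had 3 and 156 UMIs, a ratio of 14.2 (4.76 to 69.4). In the Foxn11089/1089 library 18 were counted, with 2 higher and 2 lower, where 6.23% and 3.92% of genes were, and *Apln* (4.14), *Figf* (2.07) and *Fli1* (0.37) were those with at least 100 UMIs. In mural cells 15 were counted in the library labelled Tbx1neo2/neo2, with 4 higher and 3 lower, where 27.9% and 4.87% of genes were, and 5 in the Foxn11089/1089 library, with none past 2-fold, where 17.3% were higher and 2.84% lower. *Pgf*, *Figf* and *Foxo1* rested on 1 or 2 control UMIs there, and *Ets1* was lower (0.412, 0.279 to 0.633).

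*Vegfa* is a target of the hypoxia response, so 18 other hypoxia targets were counted beside it. In Epcam-positive cells of the library labelled Tbx1neo2/neo2 all 18 were counted and 3 were at least 2-fold higher, against the 17.1% of all genes, namely *Ndrg1* (3.39, 2.78 to 4.15), the glucose transporter gene *Slc2a1* (2.88, 2.67 to 3.12) and *Kdm3a* (2.23, 2.0 to 2.49). The median of the list there, 1.36, was close to the 1.32 of all genes. In the Foxn11089/1089 epithelium the median was 0.790 against 1.24, and 2 of 18 were higher and 1 lower, beside 19% and 7.03% of genes, namely *Kdm3a* (2.45) and *Pfkfb4* (2.09) higher and *Adm* lower (0.137, 0.107 to 0.175). In Pdgfra-positive cells 17 were counted in each comparison, with 3 higher in the library labelled Tbx1neo2/neo2 (*Slc2a1* 3.62, *Ndrg1* 3.29, *Pdk1* 2.18) and none higher and 1 lower in the Foxn11089/1089 library, at medians of 1.26 and 1.07, against the 18.4% of genes higher in the first comparison and 6.23% higher and 3.92% lower in the second. In Cdh5-positive cells the medians were 1.07 (15 counted, 3 higher, *Ndrg1* with 3.06 among them, and *Pgk1* lower at 0.447) and 1.0 (16 counted, 1 higher, 1 lower), and in mural cells 0.962 (16 counted, 3 higher, 2 lower) and 0.902 (7 counted, none past 2-fold). The shares of all genes past 2-fold in these 2 classes are those given for the pathway genes.

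The genes most like each ligand were ranked by Pearson's correlation of log2(CPM + 1) over 18 points, the 6 classes of the 3 libraries, among 13732 genes with at least 300 UMIs. The points share libraries and classes, so the values are a description only. *Vegfa* was most like *Ift46*, *Enah* and *Prpf40b* (r from 0.963 to 0.967), *Vegfb* most like *Sra1*, *Zfp771* and *2610524H06Rik* (0.985 to 0.987), and *Vegfc* most like *Rit1*, *Mest* and *Chst1* (0.955 to 0.958). *Angpt1* was most like *Ptgr1*, *Pla2g4a* and *Hectd2* (0.922 to 0.942) and *Angpt2* most like *Kcnab1*, *Loxl2* and *Pck2* (0.902 to 0.944).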

How the data were processed

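Fetal thymic lobes were profiled by droplet 3′ single-cell RNA sequencing, 1 library per genotype. The deposited values are whole-number UMI counts per gene and cell barcode, which the authors made with Cell Ranger 3.0.0 and mm10, and the submitters' processing notes also name Seurat. The groups were taken from the sample labels. The members and gene lists were chosen with earlier results of these data known. The limits of the cell classes were set after the counts had been seen. Alternatives that left out cells with *Gja5*, *Bmx* or *Cytl1* were added then too. So were those that left out parathyroid, thyroid, lung or cartilage cells or raised the mural limit.

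Barcodes were kept that had 200 genes or more and a mitochondrial share of UMIs under 20%. Classes, sums, CPM, thinning to 2000 UMIs and intervals were computed with Python 3.11.15, numpy 2.4.6, scipy 1.17.1 and pandas 2.3.3. Intervals were exact at 95%: Poisson for a count, Clopper-Pearson for a share and conditional binomial for a ratio. A count of 0 was given a limit of 3 counts. Ratios of sums were read for genes with at least 30 UMIs over both libraries, and genes of the lists were named when past 2-fold with at least 100 UMIs. *Sox18* marks the endothelial class and was left out of the pathway list. Clusters came from Seurat 5.3.0 in R 4.3.3 (2000 variable genes, 30 components, resolution 0.8), with the 10 genes kept out. Doublets were scored with Scrublet in scanpy 1.11.5, which marked 329, 265 and 1239 barcodes at a rate of 0.8% per 1000 barcodes, and were kept, with an alternative that left the highest scores out. Figures were drawn with matplotlib 3.10.9, and the interval code was tested on simulated data. Promoter sequences came from RefSeq. With 1 library per genotype no test between genotypes was made. Alternatives were other size factors, filters, classes, weights and minimum counts.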

Additional observations from a re-analysis of the deposited data

How the results depend on the processing

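No direction of a value past 2-fold reversed under any alternative run. Of 89 recomputed counts over genes 78 stayed within 1.5 times the main count, and of 631 single values 583 stayed within the counting interval of the main value and 48 did not. With median-of-ratios size factors, 2 ligands passed 2-fold in Epcam-positive cells of the library labelled Tbx1neo2/neo2 in place of 1, 1 in its Pdgfra-positive cells in place of 0, 1 in Foxn11089/1089 mural cells in place of 2, and 1 receptor in Cdh5-positive cells of the library labelled Tbx1neo2/neo2 in place of 2. With classes from clusters, 2 ligands passed in Epcam-positive and 1 in mural cells of that library in place of 1 and 3, and 4 of the 5 ligands had 1 highest source in all libraries in place of 2. In Foxn11089/1089 mural cells 1 passed with equal weight for each cell and 0 with at least 100 UMIs. With a mural limit of 2000 CPM, added after seeing the data, 1 passed in each library. The causes were not tested. No paired analysis was possible because each genotype had 1 library and no test was made. The 27 control mural cells and the 14 *Tek* UMIs of control endothelium set the precision of every ratio over them, and no replicate library showed how far a second control would lie from the first.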

Other observations

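Ptprc-positive cells, the thymocyte precursors and other hematopoietic cells of the lobe, held 52.5%, 38.1% and 8.90% of all *Angpt1* UMIs in the control, the library labelled Tbx1neo2/neo2 and the Foxn11089/1089 library. Their level was 39.7 CPM (894 UMIs, 37.1 to 42.4), 58.1 CPM (1346 UMIs, 55.0 to 61.3) and 47.2 CPM (533 UMIs, 43.2 to 51.3), which in the control was above that of every other class. Within them the 630, 291 and 118 cells that had at least 3 thymocyte markers held 421, 1134 and 172 of the *Angpt1* UMIs, at 32.5, 59.1 and 42.3 CPM, below the level of the whole class in the control and the Foxn11089/1089 library. The 40, 48 and 57 cells with at least 3 macrophage markers held 1, 51 and 13, at 1.90, 27.1 and 12.1 CPM.

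*Angpt2* in Ptprc-positive cells was lower than in the control in both other libraries, as in Epcam-positive cells. There were 9.85 CPM (222 UMIs, 8.60 to 11.2) in the control, 1.38 CPM (32 UMIs, 0.945 to 1.95) in the library labelled Tbx1neo2/neo2 and 1.24 CPM (14 UMIs, 0.677 to 2.08) in the Foxn11089/1089 library, ratios of 0.14 (0.0936 to 0.204) and 0.126 (0.0676 to 0.216). *Mcph1*, which overlaps *Angpt2* on the other strand, was at 13.04, 13.9 and 17.7 CPM in the same cells and was not lower than the control in either library.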
